A study of Mus musculus with 12 samples.

Results

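The comparison described here is that of XY with XX somatic support cells of the mouse gonad at embryonic day 11.5 (E11.5), and it rests on 6 of the 12 arrays of the study, chosen by the sex and stage on their labels. The support cell is the somatic lineage that becomes the Sertoli cell in a testis and the granulosa cell in an ovary. Animals of every group, XX and XY alike, were of the transgenic line FVB.Cg-Tg(Tyr)3412ARpw and also carried Tg(Sry-EGFP)92EI, an EGFP reporter named for Sry. Cells had been purified by flow cytometry (which cells the gate kept is not given in the sources used here), RNA was drawn from 3 pools of cells per sex, and the labels name the tissue ovary for XX and testis for XY. RNA of each pool was amplified in 2 rounds before it was read on 1 Affymetrix mouse genome array. Another 3 pools per sex, separate samples of E12.5, served to estimate the spread and to compare the days. The labels do not say whether the pools of a group came from separate litters, and the p-values then cover only how far these pools differed, which may be technical.

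In mice the Y-linked gene Sry is switched on in XY support cells for a short time around this stage. Its protein raises Sox9, SOX9 and the growth factor FGF9 then sustain each other, and FGF9 opposes WNT4, which with RSPO1 and FOXL2 belongs to the ovarian pathway. XX support cells keep the genes of the early gonad for longer and take up the ovarian programme more gradually.

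The promoters of 4 genes that the results turn on are shown first, because Sry starts the pathway, Fgf9 had a large difference, and Abcb1a and its neighbour Abcb1b are a pair of adjacent genes of 1 family that are compared below. Each is the 250 bases before the annotated start of the gene, from RefSeq for GRCm38.p6, written 5′ to 3′ on the strand of the gene, and capitals mark the motifs searched. They are Sry at chrY:2663659-2663908 (minus strand), Fgf9 at chr14:58072436-58072685 (plus strand), Abcb1a at chr5:8566841-8567090 (plus strand) and Abcb1b at chr5:8797897-8798146 (plus strand).
Sry: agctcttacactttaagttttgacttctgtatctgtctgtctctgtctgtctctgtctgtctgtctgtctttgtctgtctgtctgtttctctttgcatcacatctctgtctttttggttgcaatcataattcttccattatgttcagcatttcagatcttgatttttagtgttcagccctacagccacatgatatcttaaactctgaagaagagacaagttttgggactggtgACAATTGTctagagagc
Fgf9: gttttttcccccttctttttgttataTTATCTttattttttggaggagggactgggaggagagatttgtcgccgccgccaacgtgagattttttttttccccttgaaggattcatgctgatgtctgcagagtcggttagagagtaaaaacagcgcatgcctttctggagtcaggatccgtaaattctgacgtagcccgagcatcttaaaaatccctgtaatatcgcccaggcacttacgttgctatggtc
Abcb1a: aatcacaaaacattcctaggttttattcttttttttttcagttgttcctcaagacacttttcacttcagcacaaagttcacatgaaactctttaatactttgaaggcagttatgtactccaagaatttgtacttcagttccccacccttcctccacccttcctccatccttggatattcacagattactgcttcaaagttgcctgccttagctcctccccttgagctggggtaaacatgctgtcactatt
Abcb1b: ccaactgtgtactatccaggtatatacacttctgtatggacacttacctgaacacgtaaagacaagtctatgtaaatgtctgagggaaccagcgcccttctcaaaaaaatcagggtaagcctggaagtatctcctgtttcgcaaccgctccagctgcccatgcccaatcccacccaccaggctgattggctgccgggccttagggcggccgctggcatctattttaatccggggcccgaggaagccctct
The motifs were the SOX core ACAAT, the GATA sequence AGATAA and the NR5A1 sequence AAGGTCA, on both strands, over windows of 300 bases that also hold the 50 bases after the start. The capitals in Sry are a SOX core on each strand, overlapping, the first at -17 from the start. The capitals in Fgf9 are the GATA sequence on the other strand, at -224. Neither Abcb1 window holds any of the 3 motifs. Of 32851 windows, 31% hold the SOX core, 11.2% the GATA sequence and 4.72% the NR5A1 sequence. Among the 13 genes called below that have a window, 3 hold the first (Sry, Eif2s3y, Kdm5d), 2 the second (Fgf9, Kdm5d) and 0 the third. A match says only that these letters occur in the window.

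The labels held on every E11.5 array. Xist, the RNA that silences an X chromosome, read 12.80, 12.88 and 12.83 on the log2 scale in the XX pools 1 to 3 and 7.41, 7.39 and 6.90 in the XY pools at its brightest probe set. Eif2s3y, a translation factor gene on the Y chromosome, read 3.91, 3.75 and 3.72 in XX and 11.28, 11.36 and 11.22 in XY. In XX, the 6 called probe sets of Eif2s3y, Kdm5d and Uty read 3.51 to 5.07. That is signal without the target, and a fold whose lower mean lies in this range is given as a lower bound. Signal without the target differed between probe sets, since the 2 uncalled Kdm5d probe sets read 5.43 to 6.04 in XX. The other folds are those of the signal as measured, and a lower mean near these values was not shown to lie above background. Genes of the early gonad were present in all 6 pools, with Wt1 between 11.53 and 12.73, Nr5a1 between 10.42 and 12.30 and Lhx9 between 12.05 and 12.84.

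XX pool 2 stood apart. It was the highest of the 6 pools at 19 of 20 endothelial markers (19.5% of all 17996 genes), among them Cdh5 with 8.81 against 5.53 and 5.81 in the other XX pools and Kdr with 10.24 against 7.90 and 8.12. It was also the highest of the 6 at 22 of 24 genes of mitosis and replication and at 10 of 15 interstitial mesenchyme markers. Results are therefore given for all arrays, with values without this pool beside those that it moved most. Without it 1 of the 3 Xist probe sets lost its call (-8.18, adjusted p = 0.012, and -8.13, adjusted p = 0.063), and the other 2 kept theirs.

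Of 44238 probe sets tested, 30 (0.0678%) differed between XY and XX at a Benjamini-Hochberg adjusted p under 0.05 in limma, the threshold for a call used throughout. Of these, 24 were higher in XY (0.0543%) and 6 lower (0.0136%). At an unadjusted p under 0.05 there were 3012 (6.81%). The called probe sets with a single symbol belong to 15 genes, of which Xist, Eif2s3y, Kdm5d and Uty mark the sex chromosomes. The other 11 genes were Sry, Sox9, Fgf9, Abcb1a, Mmd2, Scrn1, Phgdh, Nudt19 and Spry4, higher in XY, and Rgs4 and Lhx9, lower. Without XX pool 2 the calls numbered 27 (0.061%), of which 22 were shared with the fit to all arrays. Of the 11 genes, Lhx9, Rgs4, Spry4, Phgdh, Nudt19 and Mmd2 then lost their call, and Sry, Sox9, Fgf9, Abcb1a and Scrn1 kept it. The 1 named gene called only then was Vstm4, which read 7.44, 8.16 and 7.43 in XX and 9.01, 8.82 and 8.51 in XY (1.10 with all arrays, adjusted p = 0.2, and 1.35 without XX pool 2, adjusted p = 0.044). Without XY pool 3 the calls numbered 57. All 6 XX and XY pools separated without overlap at 2928 probe sets higher in XY (6.62%) and 1548 lower (3.5%).

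**Figure D1:**
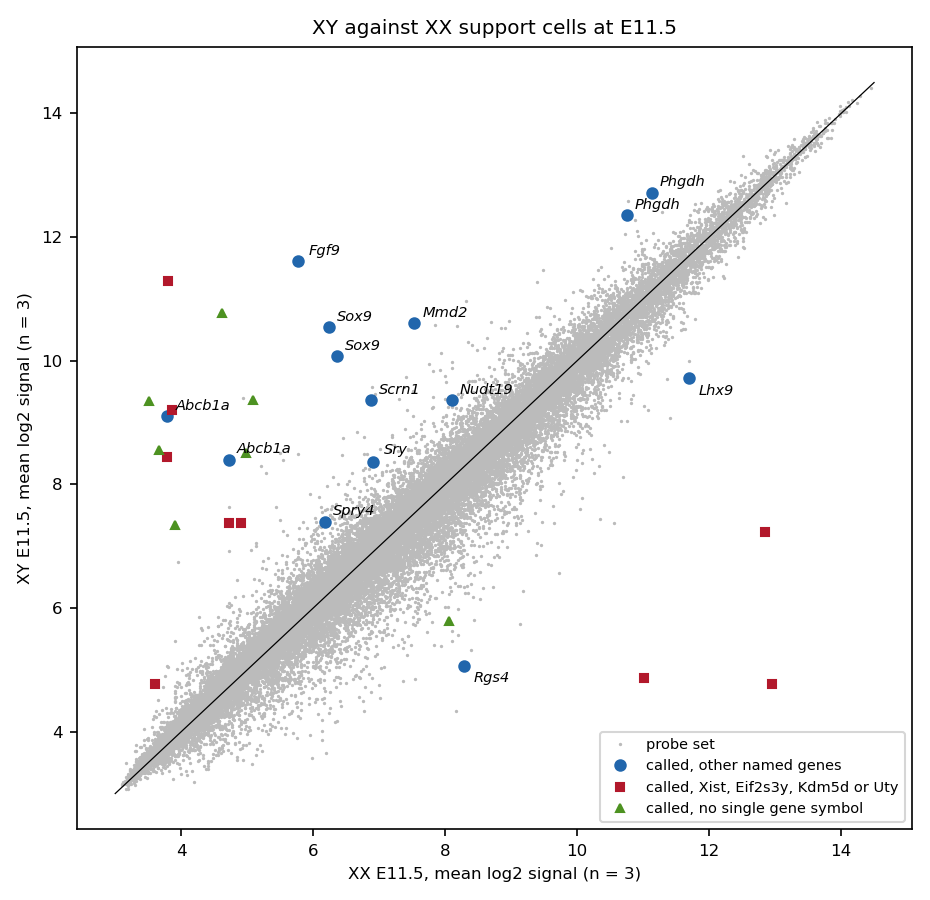
Mean log2 signal of each probe set in XY (vertical axis) and XX (horizontal axis) pools at E11.5, n = 3 each, with the line of equal values. The called probe sets are coloured: Eif2s3y, Kdm5d, Uty and Abcb1a rise from XX means under 5.07, Sox9 and Fgf9 from XX means of 5.77 to 6.36, and Phgdh lies among the brightest.

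Sry, the switch gene, had the smallest difference of the 4 genes that mark XY support cells here. It read 7.10, 6.82 and 6.82 in XX pools 1 to 3 and 8.20, 8.33 and 8.55 in XY pools at its brighter probe set. The groups did not overlap, and the pools of each sex lay close together. The difference was 1.45 ± 0.16 (SE; adjusted p = 0.0067), at least 2.73-fold, a lower bound because XX cells lack the gene. The other Sry probe set read 4.68 to 4.89 in XX and 5.36 to 5.72 in XY, also without overlap, and was not called (0.80 ± 0.13; adjusted p = 0.1). In XX the brighter probe set lay above the values of Eif2s3y, Kdm5d and Uty, and whether it reads a transcript of the Sry-EGFP transgene was not tested. At E12.5 Sry read 6.82 to 7.14 in XY and 6.92 to 7.39 in XX. The difference of Sry between the days was itself called (1.57 ± 0.22; adjusted p = 0.0067), among 774 such probe sets of all tested (1.75%).

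Sox9, the transcription factor downstream of Sry that directs Sertoli fate, read 5.60, 6.55 and 6.58 in XX and 11.50, 10.04 and 10.11 in XY at its brightest probe set. XY pool 1 was the highest and XX pool 1 the lowest, and the groups lay over 3 log2 units apart. The difference was 4.31 ± 0.38, or 19.8-fold (95% interval 11 to 35.6; adjusted p = 0.0014). A second Sox9 probe set read 6.58, 6.18 and 6.32 in XX and 10.33, 9.77 and 10.10 in XY, a tighter set of values, and was called as well (3.71 ± 0.30; adjusted p = 0.00069). The third was dim, at 4.43 to 4.99 in XX and 5.06 to 5.69 in XY, and was not called (0.72 ± 0.22; adjusted p = 0.53). At E12.5 the brightest Sox9 probe set differed by 3.98 ± 0.38 (adjusted p = 0.00019). The difference of Sox9 between the days was not called (0.33 ± 0.54, 95% interval -0.87 to 1.53; adjusted p = 0.83).

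Fgf9, the secreted growth factor that sustains Sox9, had the largest difference of the 11 genes. It read 5.41, 7.30 and 4.61 in XX and 12.21, 11.27 and 11.34 in XY. XX pool 2, which stood apart at endothelial markers, was the highest XX pool, and the groups were nonetheless far from overlapping. The difference was 5.84 ± 0.59, or 57.1-fold as measured (22.9 to 143; adjusted p = 0.0039), against XX pools not shown to lie above background, and 6.60 without XX pool 2 (adjusted p = 0.00029). The dimmer Fgf9 probe set read 6.92 to 7.18 in XX and 9.75, 7.99 and 8.01 in XY, again with XY pool 1 on top (1.57 ± 0.41; adjusted p = 0.42).

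Sprouty 4 (Spry4), a feedback inhibitor of receptor tyrosine kinase signalling that FGF signals induce, was called at 1 of 4 probe sets. That probe set read 6.05, 6.08 and 6.41 in XX and 7.43, 7.47 and 7.30 in XY, both groups tight (1.22 ± 0.15; adjusted p = 0.02). Without XX pool 2 its adjusted p was 0.089. The brightest Spry4 probe set read 6.51, 7.68 and 6.47 in XX and 9.55, 10.04 and 9.16 in XY, a larger difference with more spread (2.70 ± 0.46; adjusted p = 0.1). The wider list of FGF response and feedback genes had 0 of 16 called at the brightest probe set, against 10 of 17996 genes (0.0556%). For 5 of them the XY pools all lay above the XX pools, where 6.88% of all genes did so, and for 0 below (3.52% of all genes). Those 5 were Spry4, Spred2 (1.09 ± 0.27), Etv5 (2.32 ± 0.58), Dusp5 and Fosl1. The list's median difference was 0.25, against 0.04 over all genes. Dusp6, a phosphatase gene commonly read as a measure of FGF signalling, read 9.34, 10.31 and 10.21 in XX and 11.10, 9.73 and 9.49 in XY, so its groups overlapped.

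Of 15 FGF ligand and receptor genes, Fgf9 was the 1 called (median 0.08). Fgfr2, the receptor gene through which FGF9 acts in Sertoli differentiation, read 10.79, 10.70 and 11.20 in XX and 10.42, 10.05 and 10.58 in XY, lower in each XY pool and not called (-0.55 ± 0.19; adjusted p = 0.65). At E12.5 it differed by -2.82, and the difference between the days was called (2.27; adjusted p = 0.0033). Fgf20, a close relative of Fgf9, was near background in both sexes, at 5.37 to 5.51 in XX and 5.57 to 5.72 in XY.

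**Figure D2:**
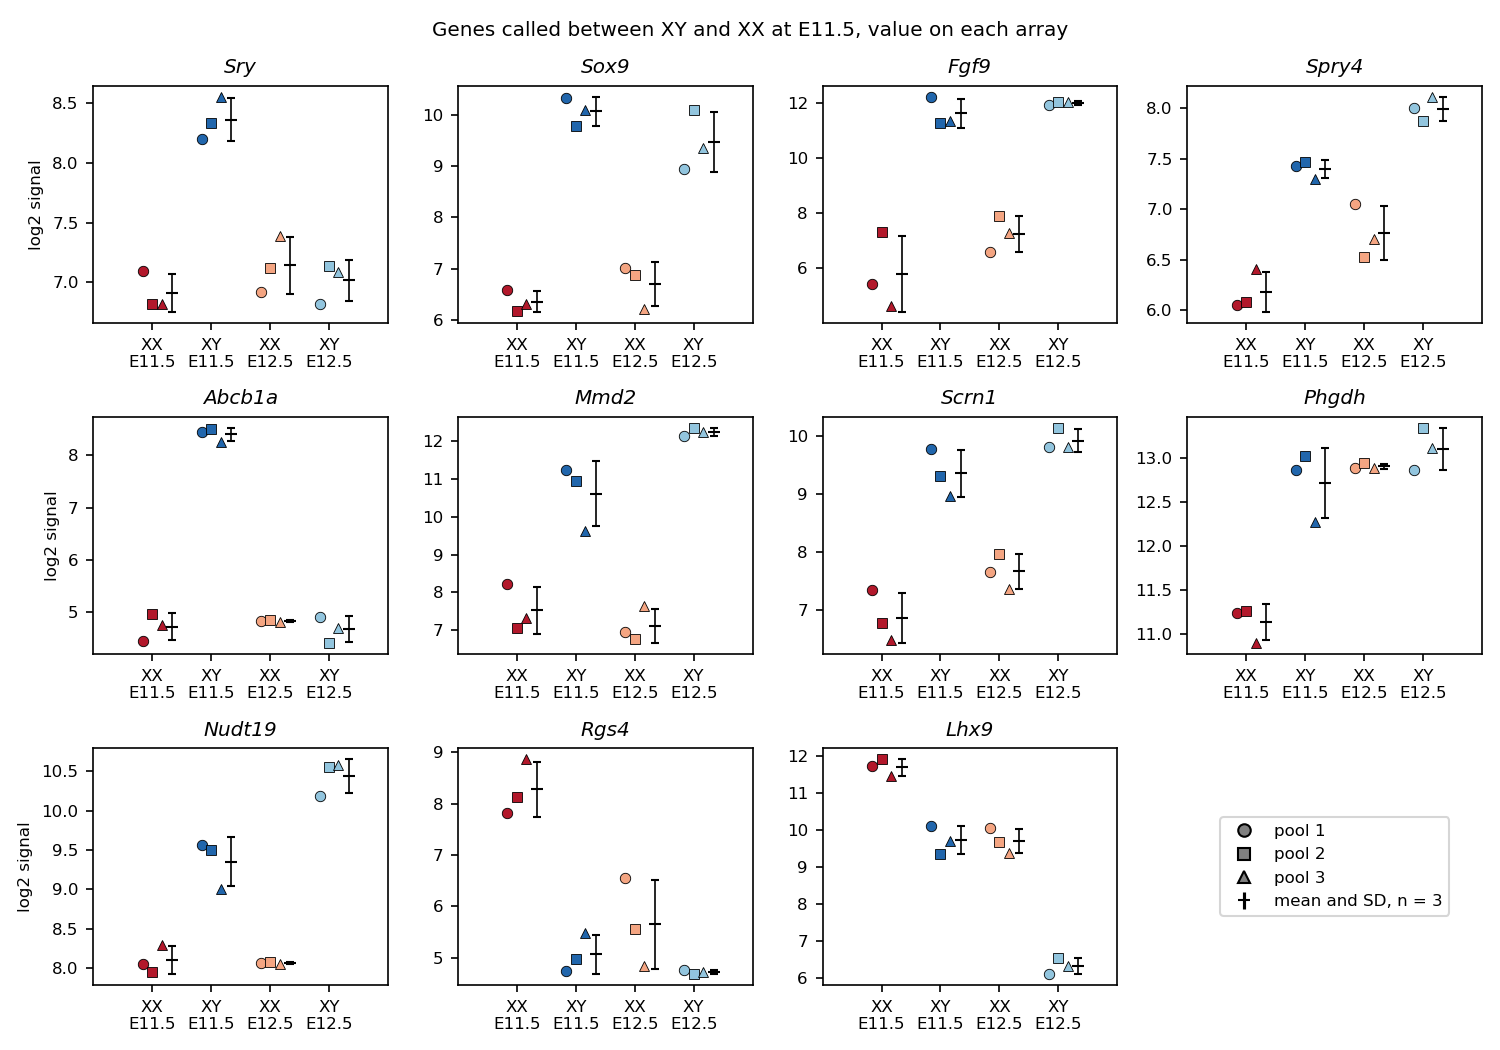
Log2 signal of each called gene other than Xist, Eif2s3y, Kdm5d and Uty on all 12 arrays, at its called probe set with the smallest adjusted p. Symbols are pools and bars the mean ± SD (n = 3). Abcb1a is high in the XY E11.5 pools alone (8.26 to 8.50), Rgs4 is high in the XX E11.5 pools (7.82 to 8.87), and Phgdh is lower in the XX E11.5 pools (10.89 to 11.26) than in the other 3 groups.

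Abcb1a encodes P-glycoprotein, a pump of the ATP-binding cassette (ABC) family that exports many drugs and lipids across the cell membrane. At its brighter probe set it read 4.45, 4.96 and 4.75 in XX and 8.45, 8.50 and 8.26 in XY. At the other it read 3.70, 3.88 and 3.80 in XX and 9.28, 9.58 and 8.42 in XY. At both, the XX values lay in the range seen without a target, and the 3 XY pools lay far above them. The XY pools lay close together at the brighter probe set and spread more at the other. The differences were 3.68 ± 0.16 (at least 12.8-fold; adjusted p = 6.2e-06) and 5.30 ± 0.29 (at least 39.4-fold; adjusted p = 2.6e-05). At E12.5 the brighter probe set read 4.81 to 4.85 in XX and 4.40 to 4.90 in XY, and the other 3.50 to 3.94 and 3.89 to 4.67, so XY pools no longer lay apart from XX pools. The difference between the days was called at both probe sets (3.85 ± 0.22, adjusted p = 7.3e-05, and 4.88 ± 0.42, adjusted p = 0.00056).

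Abcb1b, the second mouse gene for P-glycoprotein, is the next gene on chromosome 5, followed by Abcb4, which encodes a phospholipid transporter. Abcb1b read 7.99, 7.40 and 7.89 in XX and 10.23, 10.27 and 9.33 in XY. All XY pools lay above all XX pools, but the difference was not called (2.18 ± 0.45; adjusted p = 0.25), and a dim second probe set overlapped. Its XX values lay above the range seen without a target, where those of Abcb1a lay in it. At E12.5 Abcb1b read 5.40 to 6.65 in XX and 5.64 to 7.31 in XY, below the E11.5 values of the same sex. Abcb4 read 6.87 to 7.49 in XX and 6.86 to 7.38 in XY, a difference of -0.11 ± 0.24 (0.06 without XX pool 2). In the whole list of 31 ABC transporters Abcb1a was the 1 called (0.05% of all genes were called higher), the pools did not overlap for 5 genes higher (6.88% of all genes) and 2 lower in XY (3.52%), and the median difference was 0.11.

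Mmd2, which encodes a membrane protein of the progestin and adipoQ receptor family, read 8.22, 7.05 and 7.32 in XX and 11.24, 10.95 and 9.63 in XY. XY pool 3 was the lowest of the XY pools by over 1 log2 unit, yet above every XX pool. The difference was 3.08 ± 0.43 (adjusted p = 0.041), and 5.12 ± 0.43 at E12.5, where the difference between the days was not called (-2.04 ± 0.60; adjusted p = 0.13). A second Mmd2 probe set, also without overlap, was not called (2.08 ± 0.34; adjusted p = 0.094). At the third the groups overlapped (0.23 ± 0.22). Of 11 genes of the family Mmd2 was the 1 called (median 0.17). Paqr7 and Paqr8, which encode membrane progestin receptors, also had every XY pool above every XX pool (1.07 ± 0.18, adjusted p = 0.094, and 1.12 ± 0.31, adjusted p = 0.48). Of all genes 6.88% did so.

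Scrn1, a gene of the secernin family named for regulated secretion in mast cells, read 7.34, 6.77 and 6.48 in XX and 9.79, 9.32 and 8.97 in XY at its called probe set. The groups did not overlap, and XX pool 1 was the highest XX pool (2.50 ± 0.26, or 5.64-fold; adjusted p = 0.0056). Its brightest probe set had a difference of 2.19 ± 0.39 that was not called (adjusted p = 0.13), with XX pool 3 low at 6.88 against 8.21 and 8.71. Among the 3 secernins the median was 0.20. Nudt19, which encodes a peroxisomal hydrolase of coenzyme A, read 8.06, 7.95 and 8.30 in XX and 9.56, 9.50 and 9.00 in XY (1.25 ± 0.17; adjusted p = 0.036). Its other, brighter probe set also had groups without overlap and was not called (1.15 ± 0.22; adjusted p = 0.18).

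Phgdh, the first enzyme of serine synthesis from glucose, was bright in both sexes and called at both of its probe sets. It read 11.24, 11.26 and 10.89 in XX and 12.87, 13.02 and 12.27 in XY at the brighter one, 3.01-fold higher (2.21 to 4.1; 1.59 ± 0.20, adjusted p = 0.02). At E12.5 XX cells read 12.89 to 12.94 and XY cells 12.86 to 13.34. The XX and XY pools thus overlapped at E12.5, and the difference between the days was called at this probe set (1.39 ± 0.28; adjusted p = 0.04) and not at the other (1.39 ± 0.32; adjusted p = 0.059). Psat1, the next enzyme of the pathway, read 10.66, 11.57 and 10.56 in XX and 12.47, 12.31 and 11.25 in XY (1.08 ± 0.34; adjusted p = 0.58). Psph, the last, differed by 0.06 ± 0.26. In the list of 19 serine and one-carbon enzymes Phgdh was the 1 called, and the median was -0.04 (0.02 without XX pool 2).

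Both genes lower in XY were called at 1 probe set each. Rgs4, which encodes a protein that shortens signalling by G proteins, read 7.82, 8.13 and 8.87 in XX and 4.74, 4.97 and 5.49 in XY, at least 9.25-fold lower (-3.21 ± 0.40; adjusted p = 0.02). At the brightest of its 3 probe sets the groups overlapped (-0.55 ± 0.23; adjusted p = 0.73). At E12.5 the called probe set read 6.56, 5.57 and 4.84 in XX and 4.69 to 4.77 in XY, and the difference between the days was not called (-2.28 ± 0.57; adjusted p = 0.082). Of 24 genes of RGS proteins and G protein subunits, 0 were called at the brightest probe set (median 0.04). The groups overlapped for all 24, where 6.88% of all genes did not overlap higher in XY and 3.52% lower.

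Lhx9, a LIM homeobox gene needed for the gonad to form, read 11.72, 11.90 and 11.44 in XX and 10.11, 9.36 and 9.69 in XY at the called probe set (-1.96 ± 0.23; adjusted p = 0.013). At its brightest probe set it read 12.72, 12.38 and 12.84 in XX and 12.05, 12.59 and 12.49 in XY, with overlap and a difference of -0.27 ± 0.17. The other Lhx9 probe sets differed by -0.69 and -0.52, also with overlap. At E12.5 the brightest read 12.60 to 12.77 in XX and 8.37 to 8.65 in XY, a difference of -4.13 ± 0.17 (adjusted p = 1.7e-06). Of 18 LIM homeobox and LIM cofactor genes 0 were called at the brightest probe set (median 0.05). Lmo4 was 1 of 2 with every XY pool above every XX pool (0.96 ± 0.23; adjusted p = 0.36), as 6.88% of all genes had.

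How firmly each call stood was read by leaving out each of the 12 arrays in turn. Sry, Sox9, Fgf9, Abcb1a and Scrn1 were called in all 12 of these fits, the highest adjusted p being 0.044 for Sry (without XX pool 2), 0.0073 for Sox9 (the same), 0.027 for Fgf9 (without XX pool 1) and 0.042 for Scrn1 (without XX pool 2). Lhx9 was called in 9, Rgs4 in 6, Spry4 in 5, Phgdh and Nudt19 in 3 and Mmd2 in 2. The call of Lhx9 ended without E11.5 XX pool 1, XX pool 2 or XY pool 2 (adjusted p = 0.052, 0.065 and 0.06). That of Rgs4 ended without E11.5 XX pool 2 or 3, E11.5 XY pool 1 or 2, E12.5 XX pool 2 or E12.5 XY pool 3, with adjusted p between 0.056 and 0.098. That of Spry4 ended without E11.5 XX pool 1 or 2, E11.5 XY pool 1 or 2, E12.5 XX pool 3 or E12.5 XY pool 1 or 3, with adjusted p up to 0.098. Phgdh kept its call only without E11.5 XY pool 3 or E12.5 XY pool 1 or 2 (otherwise 0.053 to 0.1), Nudt19 only without XX or XY pool 3 of E11.5 or E12.5 XY pool 1 (otherwise 0.066 to 0.13), and Mmd2 only without E11.5 XX pool 1 or XY pool 3 (otherwise 0.056 to 0.14). All 6 kept their direction in every such fit. Fitted on the 6 E11.5 arrays alone, Abcb1a kept its call (adjusted p = 0.0047), as did 1 Sox9 probe set. Sry, Fgf9 and the brightest probe set of Sox9 did not (adjusted p = 0.2, 0.28 and 0.23), nor did the other 7 genes keep a call.

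Of the 30 called probe sets 7 had no single gene symbol here, and of these 6 were higher in XY. Probe set 1449742_at read 3.74, 3.59 and 3.65 in XX and 8.59, 9.38 and 7.69 in XY, at least 29.7-fold higher (4.89 ± 0.35; adjusted p = 0.00031). At E12.5 it read 3.60 to 3.66 in XX and 3.55 to 4.36 in XY, and the difference between the days was called (4.65 ± 0.50; adjusted p = 0.0019). It was thus high in the E11.5 XY pools alone, as Abcb1a was. Probe set 1447426_at was the 1 lower in XY, at 8.72, 7.57 and 7.88 in XX and 5.98, 6.11 and 5.29 in XY (-2.26 ± 0.30; adjusted p = 0.026), and it read 4.99 to 5.53 in both sexes at E12.5. Its difference between the days was called (-2.50 ± 0.42; adjusted p = 0.016). Its E11.5 call ended without any of 10 arrays (adjusted p up to 0.084). The other 5 were higher in XY by 3.44 to 6.16 and were called at E12.5 too. Among these 5, 1420786_a_at went from 6.16 at E11.5 to 3.08 at E12.5, a called difference between the days (3.09 ± 0.22; adjusted p = 0.00026).

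Across the wider testis and Sertoli list, 26 of 27 genes were measured. At the brightest probe set 4 were called (Sry, Sox9, Fgf9 and Mmd2), and the pools did not overlap for 14 higher and 1 lower in XY, where 0.05% of all genes were called higher and 6.88% and 3.52% did not overlap. The median difference was 0.74, and 0.51 without XX pool 2. Of the 26, 24 had a higher mean in XY, as 10422 of all 17996 genes had. Aard read 9.40, 9.50 and 9.53 in XX and 12.54, 11.21 and 10.64 in XY (1.99; adjusted p = 0.18). Cst9 read 6.30 to 6.57 in XX and 7.11 to 7.65 in XY (0.91; adjusted p = 0.29). Some genes of differentiated Sertoli cells overlapped between the sexes. Amh, the anti-Müllerian hormone gene, read 6.23 to 6.49 in XX and 6.48 to 6.55 in XY (0.15 ± 0.30), and Sox8, a Sox9 relative, 4.97, 5.13 and 5.65 against 6.60, 5.40 and 5.10. Dmrt1, a testis gene also made in both early gonads, read 10.74, 10.36 and 11.34 against 11.48, 11.27 and 11.25, with overlap.

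Within this list the XY pools differed among themselves. XY pool 1 was the highest XY pool at 16 of the 26 genes (29.2% of all genes), and XY pool 3 the lowest at 13 (38% of all genes). Dhh, the Sertoli signal to Leydig cells, read 9.76, 8.53 and 7.34 in XY pools 1, 2 and 3 against 7.16 to 7.47 in XX, so XY pool 3 lay among the XX pools (1.26 ± 0.45; adjusted p = 0.66). Gdnf, a growth factor of Sertoli cells for germline stem cells, read 9.68, 8.44 and 6.77 against 5.07 to 5.31. Col9a3, a collagen gene, read 9.98, 8.88 and 6.35 against 5.07 to 5.84 at the probe set with its largest difference. Slc26a7, an anion exchanger gene, read 11.07, 9.04 and 8.09 against 4.47 to 5.19. In these 4 genes XY pool 1 was the highest and XY pool 3 the lowest, and 0 of the 4 were called. Gdnf, Col9a3 and Slc26a7 are among the 10 largest uncalled differences higher in XY given below, a choice that favours scattered XY pools. At 9 of those 10 XY pool 3 was the lowest XY pool. Sry did not share the order of the 4 genes, with XY pool 3 the highest. Nor did Sox9 and Fgf9 at their brightest probe sets, where XY pool 2 was the lowest. At 7 of the 26 genes of the list XY pool 1 was the lowest XY pool (42% of all genes).

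**Figure D3:**
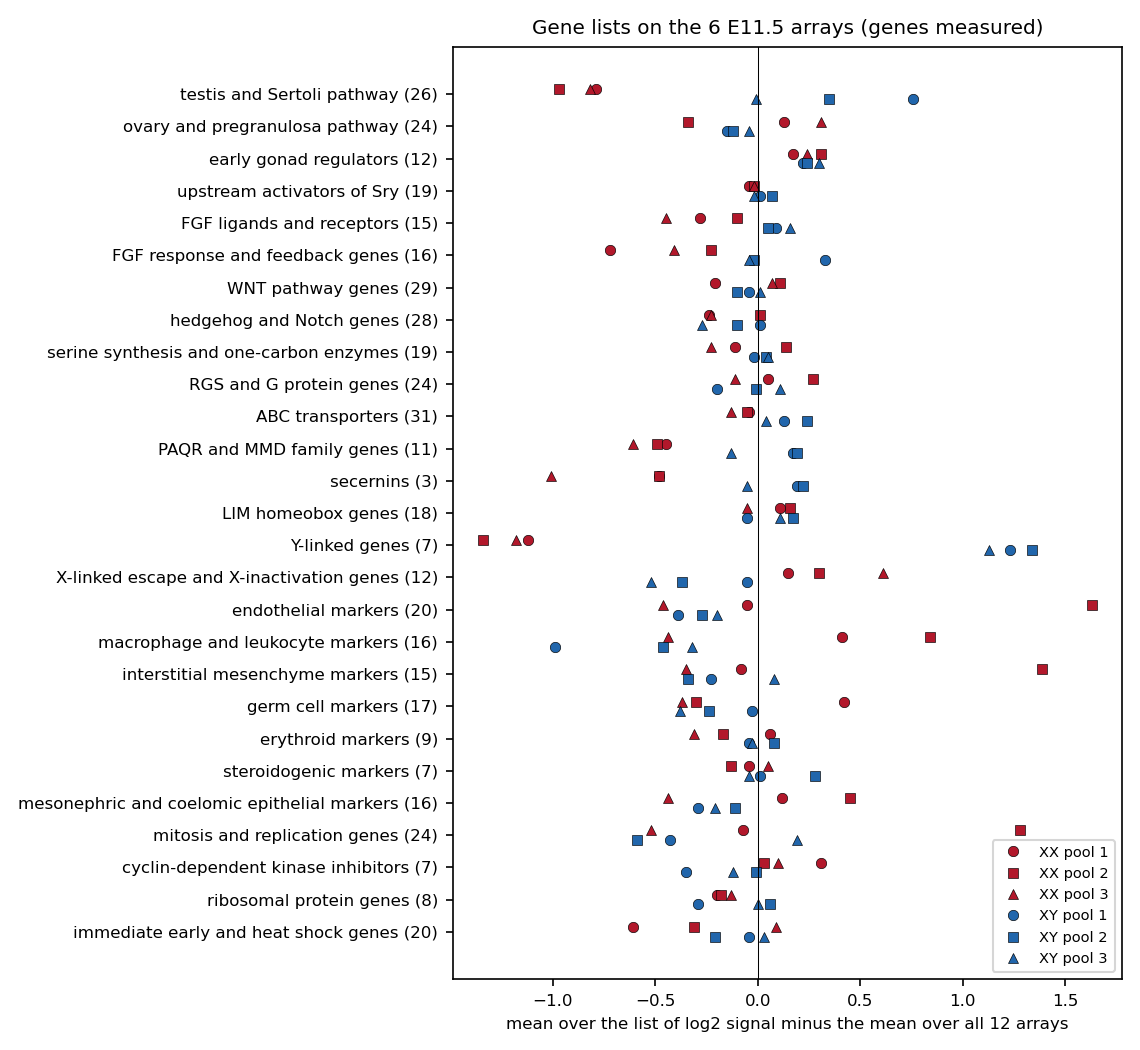
Mean over each gene list of the log2 signal on each E11.5 array minus the mean over all 12 arrays, with the number of genes measured. XX pool 2 lies apart at the mitosis, endothelial and mesenchyme lists (1.28, 1.63 and 1.39), and the 3 XY pools spread from -0.01 to 0.76 at the testis list, all above the XX pools.

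Genes of the ovarian pathway were not called. Of 24 genes of the ovary and pregranulosa list 0 were called, the pools did not overlap for 2 higher (6.88% of all genes) and 3 lower in XY (3.52%), and the median was -0.19 (-0.29 without XX pool 2). Of the 24, 20 had a lower mean in XY, as 7574 of all 17996 genes had. Foxl2, the granulosa transcription factor, read 8.26, 7.54 and 8.78 in XX and 7.69, 7.77 and 7.35 in XY (-0.59 ± 0.28). Wnt4 read 12.03, 10.99 and 11.34 against 10.01, 10.95 and 11.11 (-0.76 ± 0.35). Rspo1, the WNT enhancer, read 8.27, 7.71 and 8.35 against 7.23, 8.35 and 7.74, and Fst, the activin antagonist, 10.68, 9.63 and 12.12 against 9.38, 9.06 and 9.71. In each of these 4 the groups overlapped, and XX pool 2 was the lowest XX pool. Without it the groups of Foxl2, Wnt4 and Fst did not overlap, and those of Rspo1 did. The differences were then -0.92 for Foxl2, -0.99 for Wnt4, -2.02 for Fst and -0.54 for Rspo1, still with 0 of the 4 called (adjusted p = 0.49, 0.95, 0.18 and 1). Nr0b1, an X-linked nuclear receptor gene, had every XY pool above every XX pool, with 10.15, 9.42 and 10.11 in XX and 10.22, 11.02 and 10.69 in XY (0.75 ± 0.25; adjusted p = 0.62).

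No gene of the other pathways around the switch was called at its brightest probe set. Of 12 early gonad regulators 0 were called (median 0.04), and Nr5a1, Wt1 and Gata4 had every XY pool above every XX pool (6.88% of all genes) without a call (0.94 ± 0.30, 0.67 ± 0.21 and 0.78 ± 0.33). For Nr5a1 and Wt1 the nearest XX and XY pools read alike to 2 decimals. Without XX pool 2, where these 3 genes read lowest, they differed by 0.67, 0.50 and 0.50. Of 19 upstream activators of Sry 0 were called (median 0.05). Gadd45g, which acts through Map3k4 to raise Sry, read 12.50 to 13.14 in XX and 12.61 to 13.12 in XY, and Map3k4 differed by 0.09 ± 0.16. Of 29 WNT pathway genes 0 were called (median -0.03, and 0.06 without XX pool 2). Nkd2, a WNT antagonist gene, read 5.13, 5.85 and 5.64 in XX and 7.76, 7.24 and 6.71 in XY (1.70 ± 0.27; adjusted p = 0.078). Wnt5a read 8.09, 9.76 and 8.54 in XX and 6.82, 7.26 and 6.87 in XY (-1.81 ± 0.37; adjusted p = 0.24). Of 28 hedgehog and Notch genes 0 were called (median 0.05), with Notch2, Jag2 and Dll4 among 4 whose XY pools all lay above the XX pools (6.88% of all genes), with differences of 0.40, 0.34 and 0.26. Of 7 cyclin-dependent kinase inhibitor genes 0 were called (median -0.20), with Cdkn1b lower in each XY pool (-0.58 ± 0.20).

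**Figure D4:**
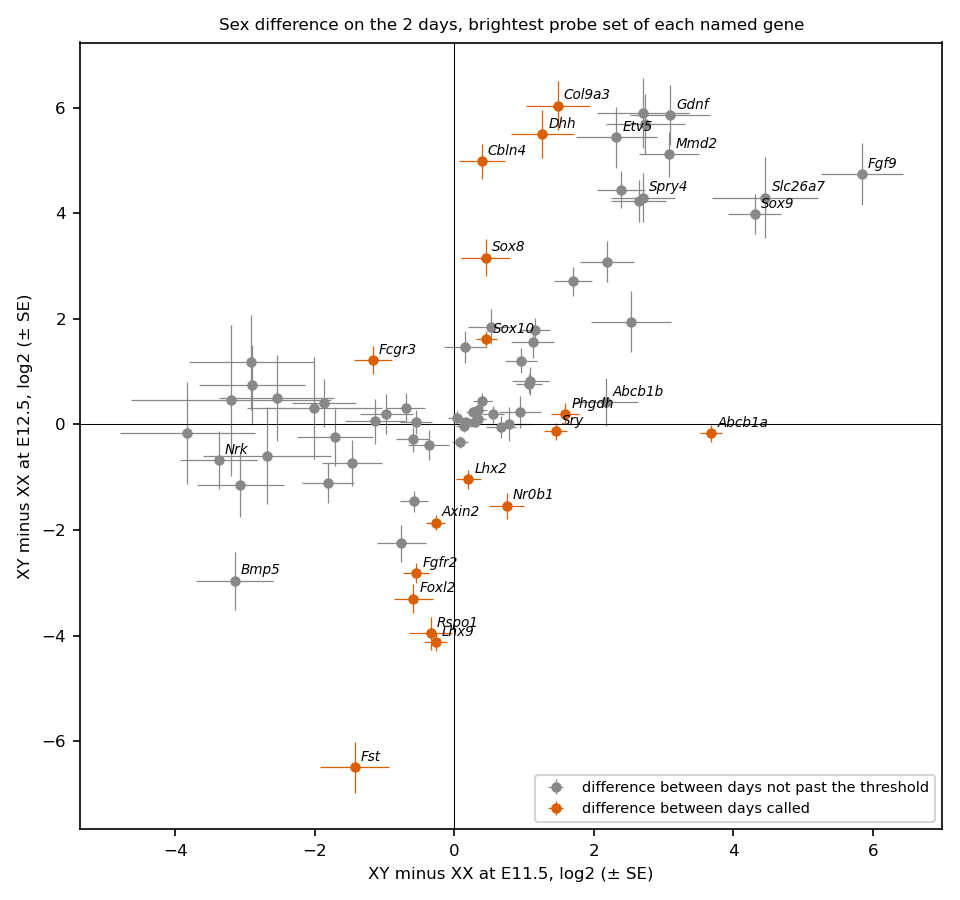
XY minus XX at E11.5 (horizontal axis) and at E12.5 (vertical axis), log2 ± SE from the fit, for the brightest probe set of each named gene. Abcb1a, Sry and Phgdh lie to the right of 0 at E11.5 and near 0 at E12.5, while Lhx9, Fst, Rspo1 and Foxl2 lie near or left of 0 at E11.5 and far below 0 at E12.5.

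Set beside E12.5, where 3416 probe sets were called (7.72%, of them 3.92% of all tested higher in XY and 3.81% lower), 7 of the 11 genes were called on both days at the same probe set and in the same direction. These were Sox9, Fgf9, Mmd2, Scrn1, Nudt19 and Spry4, higher in XY, and Lhx9, lower. The arrays of the 2 days are different samples, although the fit shares 1 estimate of the spread. Sry, Abcb1a and Phgdh were called at E11.5 and not at E12.5, with a called difference between the days, as 2.83% of all genes had at the brightest probe set. That share is not a like comparison, since the 11 genes were chosen by their E11.5 difference, which is part of the test between the days. For Rgs4, also called at E11.5 alone, the difference between the days was not called. In the testis and Sertoli list the genes called at the brightest probe set went from 4 higher at E11.5 to 19 higher and 1 lower at E12.5, and in the ovary list from 0 to 1 higher and 16 lower. Of all genes 5.59% were called higher and 5.52% lower at E12.5.

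Some large differences missed the call. The 10 largest in each direction were taken among uncalled probe sets whose groups did not overlap. Of the 10 higher in XY, 8 were called higher at E12.5 (3.92% of all probe sets). Of the 10 lower, 1 (Bmp5) was called lower (3.81%). Besides Slc26a7, Gdnf, Col9a3 and Spry4, those higher were Ppargc1a, a coactivator gene of mitochondrial metabolism (3.02), Nipal4 (2.79), AU015836 (2.74), Map3k21, a kinase gene (2.64), Has3, a hyaluronan synthase gene (2.53) and Tesc (2.39; adjusted p = 0.054). Nipal4 had this value at its dim probe set, and its brightest differed by 0.04. The value of Ppargc1a is also not that of its brightest probe set, which differed by 2.71. Those lower were Agtr2, an angiotensin receptor gene (-3.83), Nrk (-3.38), the platelet chemokine gene Ppbp (-3.20), Bmp5, a bone morphogenetic protein gene (-3.15), Tbx20 (-3.07), Plek (-2.91), St8sia4 (-2.90), Ap1s3 (-2.69), Zeb2 (-2.63) and Shisa3 (-2.62). For 9 of these 10, all but Tbx20, XX pool 2 was the highest XX pool, which was so for 29.1% of all genes. The 10 were picked on these same pools for a large difference without a call. A single high XX pool favours both, so the 29.1% is not a like comparison. Bmp5 read 8.68, 11.17 and 9.30 in XX and 6.25, 6.45 and 6.99 in XY, and without XX pool 2 it differed by -2.43. Without that pool Nrk differed by -2.69, Plek by -2.30, St8sia4 by -1.95 and Shisa3 by -1.64. The values of Zeb2 and Shisa3 are not those of their brightest probe sets. The brightest of Zeb2 differed by -1.71 with groups that overlapped, and by -1.17 without XX pool 2. The brightest of Shisa3 differed by -2.01, and by -1.02 without that pool.

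Markers of other cell types were read in the same pools, since in bulk RNA fewer cells of a type and less RNA per cell cannot be told apart. Of 20 endothelial markers 0 were called, and the median was -0.46, which became -0.01 without XX pool 2. The XY pools lay all below the XX pools for 1, Vwf (-2.55 ± 0.82), and all above for 0. Of all genes 3.52% lay below and 6.88% above in that way. The mean level of the endothelial markers was 6.87, 8.55 and 6.45 in XX and 6.52 to 6.72 in XY. Of 15 interstitial mesenchyme markers 0 were called (median -0.59, and 0.05 without XX pool 2), with a mean level of 7.79, 9.26 and 7.52 in XX and 7.53 to 7.95 in XY. Of 24 genes of mitosis and replication 0 were called (median -0.59, and 0.01 without XX pool 2), with 9.28, 10.63 and 8.83 in XX and 8.76 to 9.54 in XY. Without XX pool 2 the medians of these 3 lists lay near that of all genes (0.03).

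Macrophage and leukocyte markers kept part of their difference without that pool. Of 16, 0 were called, 3 had every XY pool below every XX pool (3.52% of all genes), and the median was -0.59, and -0.37 without XX pool 2. Csf1r, the receptor gene of macrophages, read 11.53, 11.41 and 10.30 in XX and 8.16, 9.32 and 10.16 in XY (-1.87 ± 0.46; adjusted p = 0.4). The list's mean level ran from 6.67 to 7.95 in XX and from 6.12 to 6.79 in XY, and XY pool 1 was the lowest. Whether it has a part in the genes lower in XY was not tested.

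**Figure D5:**
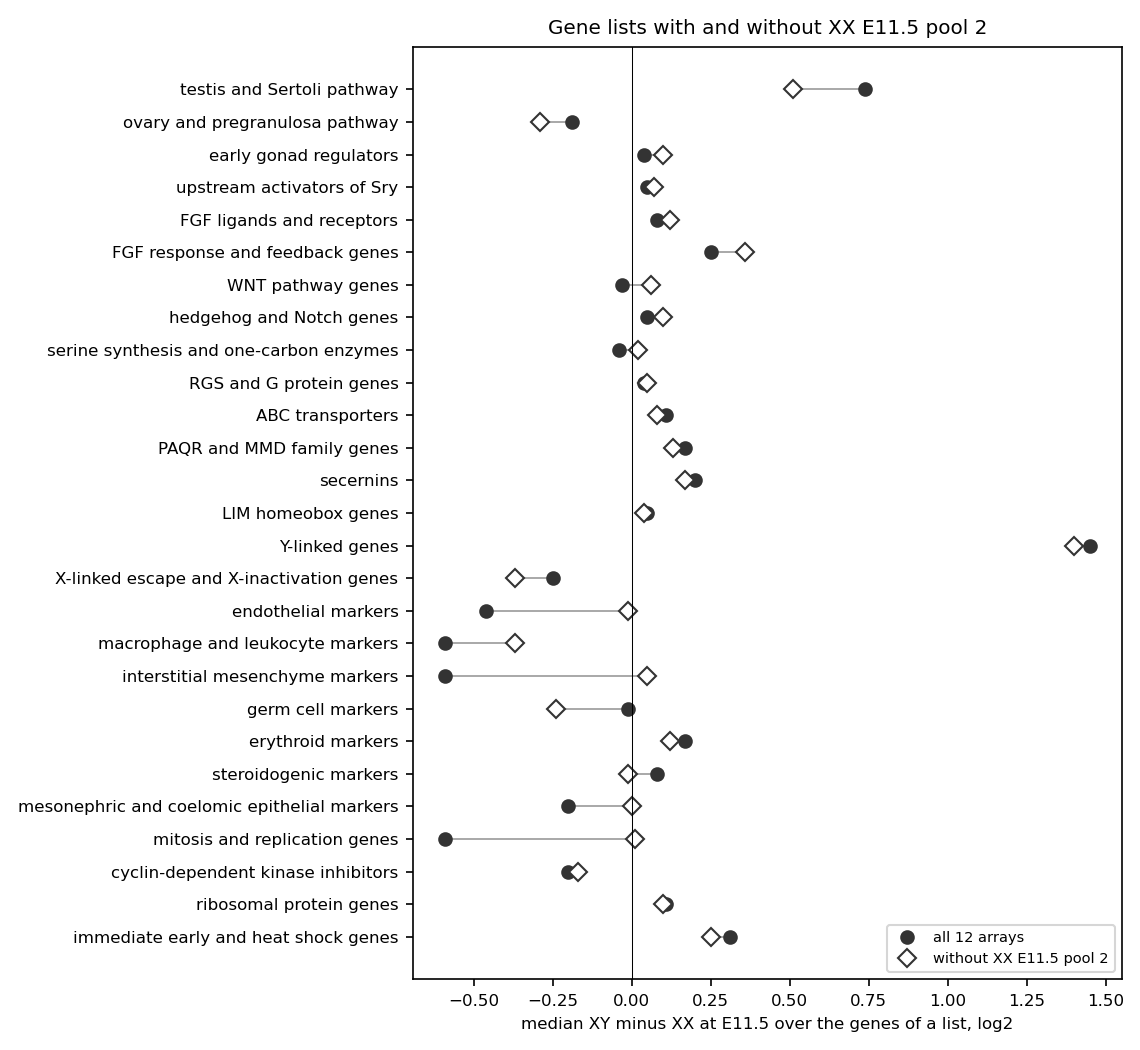
Median of XY minus XX at E11.5 (log2) over the genes of each list, with all 12 arrays (filled) and without XX pool 2 (open). The endothelial, mesenchyme and mitosis lists move from -0.46, -0.59 and -0.59 to -0.01, 0.05 and 0.01, while the testis list moves from 0.74 to 0.51.

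Germ cell markers were mostly low, with Pou5f1 at 5.53 to 6.77 and Ddx4 at 3.35 to 5.05 over the 6 pools, and of 17 measured 0 were called (median -0.01, and -0.24 without XX pool 2). Steroidogenic markers included Cyp11a1, the first enzyme of steroid synthesis, which was bright in every pool, at 12.05, 10.94 and 11.44 in XX and 10.91, 11.75 and 11.62 in XY. Of the 7 measured 0 were called (median 0.08, and -0.01 without XX pool 2). Erythroid markers (9 measured, median 0.17) and mesonephric and coelomic epithelial markers (16, median -0.20) also had 0 called. So had the 8 ribosomal protein genes measured (median 0.11) and the 20 immediate early and heat shock genes (median 0.31). Hspa1a, a heat shock gene, was lower in each XY pool, at 8.57, 7.97 and 7.37 against 9.60, 9.96 and 8.76 (-1.47 ± 0.43; adjusted p = 0.5). On the sex chromosomes, 4 of 7 Y-linked genes were called, all higher (median 1.45), and of 12 X-linked escape and X-inactivation genes Xist was the 1 called (median -0.25).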

How the data were processed

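The authors deposited 1 table of log2 values per probe set and array, and how they summarised and normalized it is not stated in the sources used here. Nothing states the base of the logarithm, which was taken as 2 from the range of 2.97 to 14.45. Of 45037 probe sets, 799 with a blank were left out and 44238 tested. Array medians ran from 6.494 to 6.592. Symbols came from the platform annotation, updated by Entrez identifier (34126 matched RefSeq, GRCm38.p6). A single symbol was held by 34328, several by 850 and none by 9060, and the last 2 kinds were not named.

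The means of 4 groups were estimated in R 4.3.3 by limma 3.58.1 (lmFit, eBayes; 8 residual and 2.11 prior degrees of freedom), two-sided, with Benjamini-Hochberg adjustment over all probe sets. The fit was tested on simulated data. A gene is represented by its brightest probe set on average. Fold values come from the log2 differences, and so do their 95% intervals. The number of arrays limits the precision.

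The members and the 27 gene lists were chosen with earlier results of these data known. Named were all called genes, the markers Sry, Sox9, Fgf9 and Abcb1a, up to 3 members of each list with the smallest p among those without overlap, the 10 largest uncalled differences without overlap in each direction, and 15 genes of gonadal development. Further list members and marker genes (Dusp6, Psat1, Psph, Gadd45g, Map3k4, Aard, Cst9, Dusp5, Fosl1, Abcb4, Cyp11a1, Kdr, Cdh5, Pou5f1, Ddx4, Vstm4) were chosen after their values were seen. Alternatives are given under the dependence on processing.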

Additional observations from a re-analysis of the deposited data

Results flagged for a closer look

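The difference between the days (XY minus XX at E11.5 minus the same at E12.5) was tested with limma at the brightest probe set. It was past the threshold for 2.83% of all genes. The named genes were chosen in part by their E11.5 difference, which is itself part of this test. That share is therefore not a like comparison for them. Of the 78 named genes, 17 were past the threshold. For some the difference was larger at E11.5: Abcb1a (3.68 at E11.5 and -0.17 at E12.5, difference 3.85), Sry (1.45 and -0.13, difference 1.57) and Phgdh (1.59 and 0.20, difference 1.39).

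For others XY cells were further below XX cells at E12.5, or below them at E12.5 alone. These were Lhx9 (-0.27 and -4.13, difference 3.86), Fst (-1.43 and -6.50, difference 5.07), Rspo1 (-0.34 and -3.96, difference 3.62), Foxl2 (-0.59 and -3.30, difference 2.71), Fgfr2 (-0.55 and -2.82, difference 2.27), Axin2 (-0.27 and -1.86, difference 1.59), Nr0b1 (0.75 and -1.54, difference 2.29) and Lhx2 (0.20 and -1.04, difference 1.24).

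For the rest XY cells were further above XX cells at E12.5, or above them at E12.5 alone. These were Col9a3 (1.48 and 6.04, difference -4.56), Cbln4 (0.39 and 4.99, difference -4.60), Dhh (1.26 and 5.50, difference -4.24), Sox8 (0.45 and 3.16, difference -2.71), Fcgr3 (-1.17 and 1.22, difference -2.39) and Sox10 (0.46 and 1.62, difference -1.16). Fcgr3 is a macrophage marker and the others are genes of the testis pathway. Groups of 3 pools are too small for a test of outlying samples.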

How the results depend on the processing

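The count of 30 calls became 12 with the E11.5 arrays alone, 12 with 1 probe set per gene and 7 with the E11.5 arrays alone and without XX pool 2. Leaving out 1 array gave 23 to 57, the last without XY E11.5 pool 3. Other settings gave 24 to 36. With the E11.5 arrays alone the calls of Sry (1.45), the brightest Sox9 probe set (4.31) and Fgf9 (5.84) ended, and also without XX pool 2 (1.40, 4.46 and 6.60; adjusted p = 0.66, 0.66 and 0.064). The fit to the E11.5 arrays alone has fewer residual degrees of freedom. The E11.5 pools also spread more (pooled SD 0.45 in XX and 0.422 in XY) than the E12.5 pools (0.331 and 0.357). Fgf9 had an SD of 1.38 in XX and 0.52 in XY at E11.5, and of 0.66 and 0.06 at E12.5. The main fit shares 1 spread over both days, so its p-values and intervals may be too narrow for such genes. The brighter Abcb1a probe set was called in every setting that included it, and the other lost its call in that last setting. Values near 0 changed sign for Nipal4 (-0.003 under quantile normalization, and -0.02 to 0.11 leaving out 1 array, the lowest without XY E11.5 pool 2) and Sox8 (-0.001 to 0.75, the lowest without XY E11.5 pool 1). The count of 17 named genes whose difference changed between the days ran from 13 to 19 over the alternatives.

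Same-numbered XX and XY pools of E11.5 did not deviate together (correlations -0.40, 0.02 and 0.04). Pools of unlike number ranged as widely, with 0.40 for XX pool 1 with XY pool 2 and -0.36 for XX pool 3 with XY pool 2. With so few pools these values cannot decide whether the numbers pair the samples. With the pool number as a replicate block there were 34 calls. Sry, Sox9, Fgf9 and Abcb1a kept theirs (adjusted p = 0.025, 0.015, 0.015 and 0.00018), and those of Rgs4, Spry4, Nudt19 and Mmd2 ended. The labels name no batch, and the number of pools limits the precision.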
